A study of Homo sapiens with 18 samples.

Results

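The genes described here are 10 early response genes of human cells, the EGR transcription factors EGR1, EGR2 and EGR3, the NR4A nuclear receptors NR4A1, NR4A2 and NR4A3, the immediate early response genes IER2, IER3 and IER5, and the stress sensor gene GADD45B. They were chosen by symbol as members of these families, and all 10 of them were found among the 56609 genes of the count table. The libraries were made from HG3, MEC2 and PCL12 cells, EBV-positive lines derived from chronic lymphocytic leukemia (CLL), a malignancy of mature B cells. In each line 3 samples received the class B oligonucleotide CpG-ODN2006 (ODN-2006, 2.5 μg/ml) for 4 h and 3 samples were left unstimulated, which gives 6 groups of 3 and 18 libraries, and the labels give no engineered allele. Each replicate series held 1 stimulated and 1 unstimulated sample, so that libraries of the same line and number form a pair (9 pairs). Nothing in the labels says that replicates came from separate cultures, so P values measure only the spread between these samples. Each line stands for the leukemia of a single donor, and all comparisons between lines are comparisons of those cultures.

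Early response genes are transcribed within minutes of a stimulus by factors that are already present in the cell, so that no new protein has to be made first. In B cells, the antigen receptor, Toll-like receptors (TLR) and stress signals reach them through kinase cascades, the serum response factor (SRF) at CArG boxes, CREB at cAMP response elements (CRE) and NF-κB. Their transcripts are short-lived and usually fall back within hours, and a sample taken at 4 h follows the peak that many of them pass through. EGR1, EGR2 and EGR3 are zinc finger factors that carry the signal on to slower genes, and in lymphocytes EGR2 and EGR3 are known for restraining activation. NR4A1 (Nur77), NR4A2 (Nurr1) and NR4A3 (NOR1) are orphan nuclear receptors that rise after antigen receptor stimulation and are also linked to restraint of chronically stimulated lymphocytes. IER3 acts on survival, GADD45B binds kinases of the JNK and p38 cascades and is a known NF-κB target, and IER2 and IER5 encode related proteins found in the nucleus.

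The sequence before the start of EGR1 and of 1 start of EGR2 is shown because both hold CArG boxes, that of NR4A3 because it holds several CRE half-sites, and that of IER5 because it holds none of the signal response motifs searched while IER5 was higher with CpG in every pair. The windows come from RefSeq (GRCh38.p14), which gave windows from 250 bases before to 50 bases after the start for 7 of the 10 genes (10 windows, since EGR2 has 3 starts and NR4A1 has 2). Those of GADD45B and NR4A1 and the other EGR2 windows also held none of the signal response motifs. NR4A2, IER3 and EGR3 are named only. The 250 bases before each start are printed 5′ to 3′ on the strand of the gene. Capitals mark CArG boxes and CRE half-sites (TGACG, or CGTCA on the other strand). The EGR1 window is chr5:138465229-138465478 (plus strand), the EGR2 window is chr10:62816367-62816616 (minus strand, within the longer EGR2 transcripts and holding 7 bases of an annotated exon), the NR4A3 window is chr9:99821635-99821884 (plus strand, 30 bases of it annotated as exon) and the IER5 window is chr1:181088450-181088699 (plus strand).
EGR1: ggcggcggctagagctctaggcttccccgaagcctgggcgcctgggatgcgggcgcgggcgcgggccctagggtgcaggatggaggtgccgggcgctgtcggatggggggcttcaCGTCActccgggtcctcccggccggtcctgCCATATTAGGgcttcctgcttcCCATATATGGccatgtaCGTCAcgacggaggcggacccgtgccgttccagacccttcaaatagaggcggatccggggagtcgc
EGR2: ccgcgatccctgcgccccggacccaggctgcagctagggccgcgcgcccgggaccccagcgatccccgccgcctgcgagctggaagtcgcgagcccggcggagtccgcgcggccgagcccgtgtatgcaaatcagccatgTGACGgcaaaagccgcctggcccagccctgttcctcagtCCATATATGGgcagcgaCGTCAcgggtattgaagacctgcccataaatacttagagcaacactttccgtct
NR4A3: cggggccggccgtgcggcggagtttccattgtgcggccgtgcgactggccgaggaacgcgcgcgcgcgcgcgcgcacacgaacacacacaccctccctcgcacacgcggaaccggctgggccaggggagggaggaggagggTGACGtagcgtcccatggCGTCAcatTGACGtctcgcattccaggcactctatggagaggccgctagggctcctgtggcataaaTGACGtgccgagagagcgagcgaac
IER5: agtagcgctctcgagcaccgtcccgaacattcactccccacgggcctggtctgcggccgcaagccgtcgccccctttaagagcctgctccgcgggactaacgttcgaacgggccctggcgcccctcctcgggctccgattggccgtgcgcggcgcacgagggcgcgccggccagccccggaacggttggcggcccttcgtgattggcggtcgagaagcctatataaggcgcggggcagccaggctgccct

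The EGR1 window held CArG boxes whose first bases lie at -105 and -83 from the start, and the EGR2 window held 1 at -71. A CArG box was found in 1.29% of all 35116 windows. CRE half-sites were found for EGR1, EGR2, IER2 and NR4A3, with 4 in NR4A3 (first bases at -109, -91, -83 and -25), against 24.6% of all windows. The full CRE (TGACGTCA), held by 1.85% of all windows, and the NF-κB site, held by 5.91%, were found in none of the 10 windows. GADD45B held the EGR binding site GCGGGGGCG on the other strand (5.07% of all windows) and a TATAAA box at -31 (11.5% of all windows, either strand). A match is a description of these letters and not a bound site.

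Totals ran from 20382943 to 67308932 counts per library, and all 10 genes passed the filter on low counts. The B-cell markers MS4A1, CD79A, CD79B, PAX5, CD22 and CD74 were all at 64.5 CPM (counts scaled to a common library size) or more in every library, and the summed level of 5 T-cell markers was at most 2.40 CPM and that of 5 myeloid markers at most 8.96 CPM. Unstimulated HG3 replicate 2 and CpG-stimulated MEC2 replicate 2 had 20.2% and 19.7% of their counts on mitochondrial genes, against 2.82% to 9.28% in the other 16. Replicates 2 and 3 of PCL12 stood apart from replicate 1 in genes of MEC2: over 48 genes chosen as at 20 CPM or more in MEC2 and at no more than 10% of that level in PCL12 replicate 1, their median level was 26.3% to 31.2% of the MEC2 level, and the source of these transcripts was not tested. TLR9, the receptor of CpG DNA, had at most 10 counts in any library. NFKBIZ, an NF-κB target that responds to TLR signals, was higher with CpG in all 9 pairs, with a log2 fold change averaged over the lines of 1.52 ± 0.19 (SE, edgeR, adjusted p = 0.000398). Within the lines NFKBIZ was called in MEC2 (2.20 ± 0.33 SE, edgeR adjusted p = 0.0154) and not in PCL12 (1.71 ± 0.33 SE, edgeR adjusted p = 0.541) or HG3 (0.66 ± 0.32 SE, edgeR adjusted p = 1.00) when the pairs were not used. With the replicate pair in the fit NFKBIZ was called in MEC2 and in PCL12 (1.70 ± 0.21 SE, edgeR adjusted p = 2.56e-11, and limma-voom 0.00802) and not in HG3 (0.73 ± 0.21 SE, edgeR adjusted p = 0.139), and its groups did not overlap in MEC2 and PCL12.

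The first comparison asks whether 4 h of CpG changed the early response genes. In the edgeR fit none of the 10 genes passed an adjusted p of 0.05 in HG3, MEC2 or PCL12 or averaged over the lines, where 0.00314%, 0.00314%, 0% and 0.00941% of the 31872 tested genes did so. At an unadjusted P under 0.05, 1 of the 10 was found in MEC2 and 1 averaged over the lines, IER5 both times, against 2.46% and 4.04% of all tested genes, and none in HG3 or PCL12 (3.73% and 2.09%). At the same P with the pair in the fit there were 4 of the 10 in MEC2 (NR4A3, IER3, IER5 and GADD45B), 4 in PCL12 (EGR3, NR4A1, IER3 and IER5), 5 averaged over the lines (EGR3, NR4A3, IER3, IER5 and GADD45B) and none in HG3, against 3.41%, 1.69%, 4.54% and 3.59% of all tested genes. DESeq2 and limma-voom also called none of the 10 in these comparisons. By the study's definition of a differentially expressed gene (DEG, P under 0.01 and a log2 fold change of at least 1 in size), the unpaired fit found none of the 10 in HG3, MEC2 or PCL12, beside 0.496%, 0.251% and 0.116% of tested genes. The log2 fold changes of the 10 genes in the unpaired fit ran from -0.19 (IER2) to 0.23 (EGR3) in HG3, from -0.36 (EGR1) to 1.07 (NR4A3) in MEC2 and from -0.88 (EGR3) to 0.72 (IER3) in PCL12. Their standard errors ran from 0.26 to 1.03, with those of NR4A3 the largest in each line (1.02, 1.03 and 1.03). For all EGR and NR4A genes the 95% confidence interval held a 2-fold fall in every line. In HG3 it also held a 2-fold rise, with NR4A2 at -1.26 to 1.12 (log2). The unpaired fit therefore could not exclude a 2-fold change for these genes. The intervals of IER2 held no 2-fold change in any line. Those of IER3 and IER5 held a 2-fold rise in MEC2 and PCL12, and that of GADD45B in MEC2. With the pair added to the edgeR fit as a replicate block, NR4A3 and IER5 passed averaged over the lines (0.555% of tested genes passed), and none of the 10 passed within a line (0.135%, 0.333% and 0.0471% of tested genes in HG3, MEC2 and PCL12). The DEG definition was met in the blocked fit by NR4A3 in MEC2 and EGR3 in PCL12 and by none in HG3, beside 0.555%, 0.242% and 0.731% of tested genes.

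**Figure D1:**
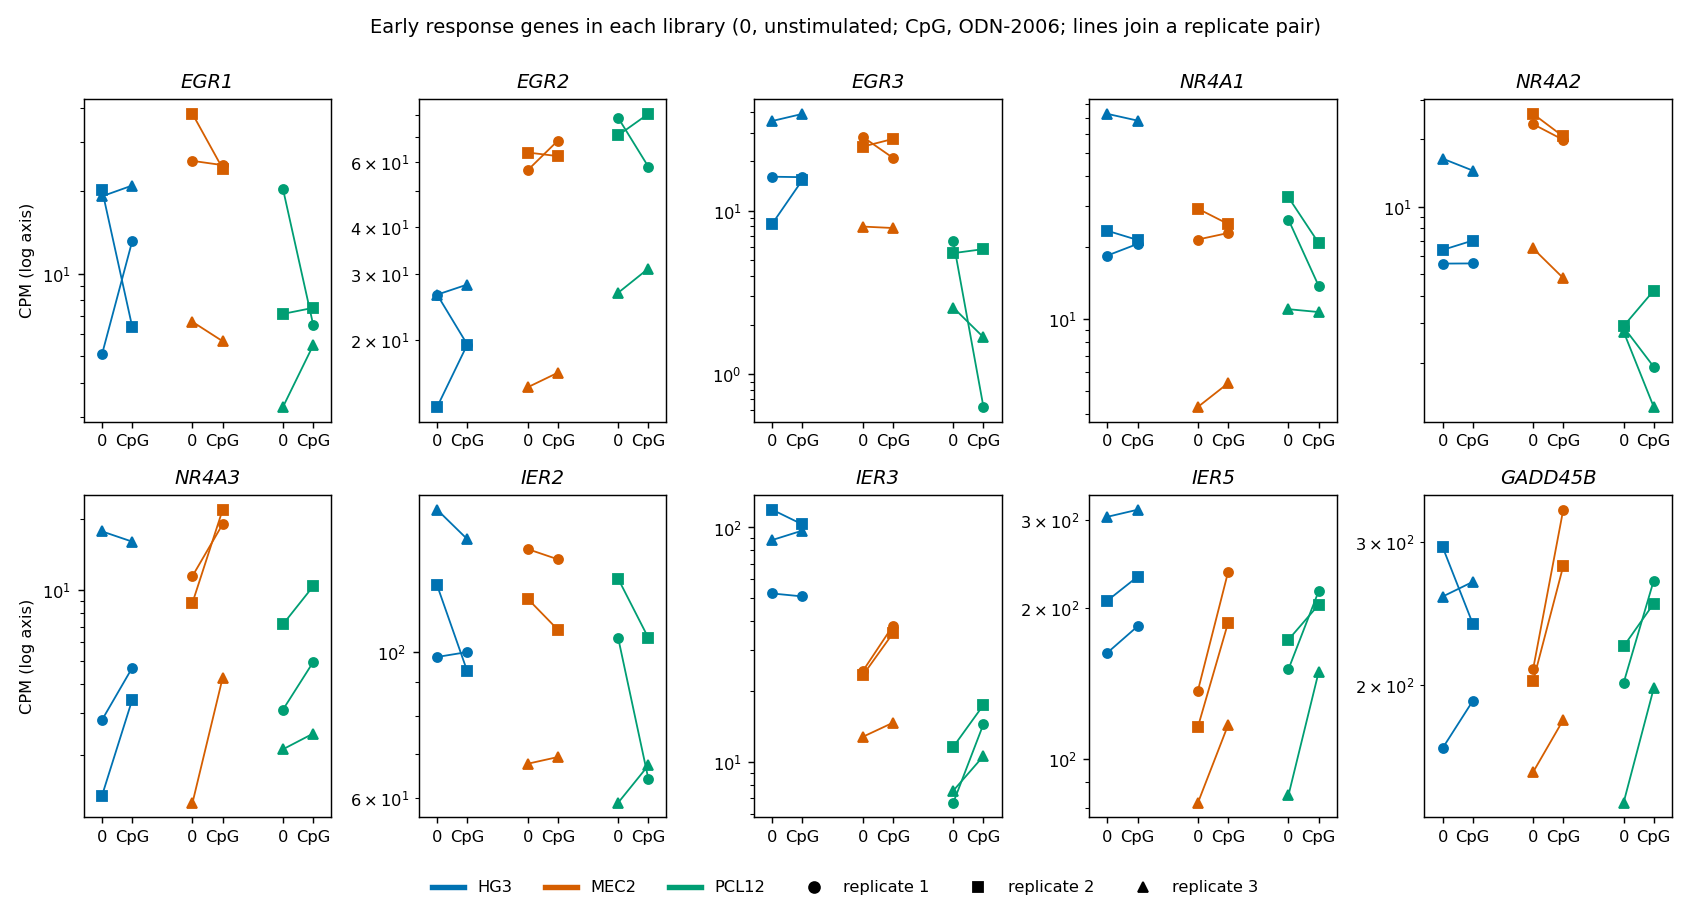
CPM on a log axis in each of the 18 libraries, with 1 panel for each gene, unstimulated (0) and CpG-stimulated (CpG) libraries side by side, colours for the lines and lines joining the replicate pairs. In MEC2 the pair numbered 3 lies below the other 2 for every gene, while for NR4A3, IER3, IER5 and GADD45B the lines of MEC2 and PCL12 all slope upward.

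NR4A3 had the largest mean change with CpG among the 10 genes, and it was higher in 8 of 9 pairs, as GADD45B was (3.11% of the 10659 genes averaging 5 CPM or more were higher in at least 8). In HG3 it stood at 2.81, 1.34 and 17.8 CPM unstimulated and at 4.68, 3.42 and 16.1 CPM with CpG (replicates 1 to 3). In MEC2 it stood at 11.5, 8.86 and 1.25 CPM unstimulated and at 19.1, 22 and 4.25 CPM with CpG. In PCL12 it stood at 3.11, 7.17 and 2.11 CPM unstimulated and at 4.95, 10.4 and 2.46 CPM with CpG. Every MEC2 and PCL12 pair was higher with CpG, HG3 replicate 3 was the exception, and the stimulated and unstimulated groups overlapped in all 3 lines. The log2 ratios of the 9 pairs averaged 0.80 ± 0.59 (SD), a 1.74-fold difference. The unpaired edgeR fit gave 0.58 ± 0.59 (SE, adjusted p = 1.00) averaged over the lines, from 0.24 to 1.18 with 1 library left out, and the fit with the replicate block gave 0.78 ± 0.20 (SE, edgeR adjusted p = 0.0282). In MEC2 the blocked value was 1.24 ± 0.35 (SE, edgeR adjusted p = 0.0934), which meets the DEG definition of the study. The blocked call held when HG3 replicate 2, HG3 replicate 3, MEC2 replicate 1, MEC2 replicate 2 or PCL12 replicate 3 was left out with its partner and was lost for each of the other 4 pairs, with an adjusted p of up to 0.144 without PCL12 replicate 1. limma-voom with the block did not call it (adjusted p = 0.755).

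IER5 was the only one of the 10 genes that was higher with CpG in all 9 pairs, which 0.732% of the 10659 genes averaging 5 CPM or more were. In HG3 it stood at 163, 207 and 304 CPM unstimulated and at 184, 231 and 314 CPM with CpG. In MEC2 it stood at 137, 116 and 81.9 CPM unstimulated and at 236, 187 and 117 CPM with CpG. In PCL12 it stood at 151, 173 and 84.7 CPM unstimulated and at 216, 203 and 149 CPM with CpG. The pairs of HG3 moved least, with log2 ratios of 0.05 to 0.17, and the groups overlapped in every line. The mean log2 ratio was 0.44 ± 0.29 (SD, 9 pairs), or 1.35-fold. Averaged over the lines, edgeR gave 0.43 ± 0.18 (SE, adjusted p = 1.00) without the block and 0.44 ± 0.12 (SE, edgeR adjusted p = 0.0421) with it. The blocked call held when HG3 replicate 2 or MEC2 replicate 2, whose pairs include the libraries rich in mitochondrial counts, was left out with its partner, and it was lost without any of the other 7 pairs, with an adjusted p of up to 0.277 without PCL12 replicate 1. limma-voom with the block gave an adjusted p of 0.0552.

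IER3 and GADD45B were higher with CpG in every MEC2 and PCL12 pair but not in HG3. IER3 in MEC2 stood at 24.4, 23.4 and 12.8 CPM unstimulated and at 38.1, 35.4 and 14.7 CPM with CpG. IER3 in PCL12 stood at 6.70, 11.6 and 7.54 CPM unstimulated and at 14.5, 17.5 and 10.6 CPM with CpG. IER3 in HG3 stood at 52.3, 119 and 88.4 CPM unstimulated and at 50.8, 103 and 97.0 CPM with CpG. The HG3 libraries of IER3 thus differed more between replicates than within pairs. The IER3 log2 fold change was 0.39 ± 0.13 (SE) averaged over the lines with the block (edgeR adjusted p = 0.203). GADD45B ran from 156 to 209 CPM unstimulated and from 181 to 329 CPM with CpG in MEC2, and from 143 to 223 CPM and from 198 to 269 CPM in PCL12. GADD45B had log2 ratios of 0.19, -0.31 and 0.06 in the HG3 pairs, and its blocked average was 0.26 ± 0.12 (SE, edgeR adjusted p = 0.905). With the 2 pairs that hold a library rich in mitochondrial counts left out, NR4A3, IER5, IER3 and GADD45B all passed averaged over the lines with the block (edgeR adjusted p = 0.0174, 3.98e-06, 0.00916 and 0.00358), where 1.35% of tested genes passed, an alternative chosen after seeing the data. NR4A3, IER3, IER5 and GADD45B make 4 of the 10 genes that were higher in all 6 pairs of MEC2 and PCL12, against 2.89% of the 10659 genes. The pairs of both lines may not be separate evidence where PCL12 stood apart in genes of MEC2, and the source of those transcripts was not tested. In PCL12 replicate 2 the median percentage over those genes times the MEC2 level gives CpG differences of 4.36 CPM for NR4A3, 4.46 CPM for IER3, 25.9 CPM for IER5 and 30.8 CPM for GADD45B, beside measured differences of 3.24, 5.92, 30.1 and 28.5 CPM. In PCL12 replicate 3 the products differ by 0.727, -0.136, 5.23 and -0.954 CPM and the measured levels by 0.350, 3.02, 64.3 and 54.5 CPM. Replicate 1, where the genes of MEC2 were low by their choice, was higher with CpG for all 4 genes.

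**Figure D2:**
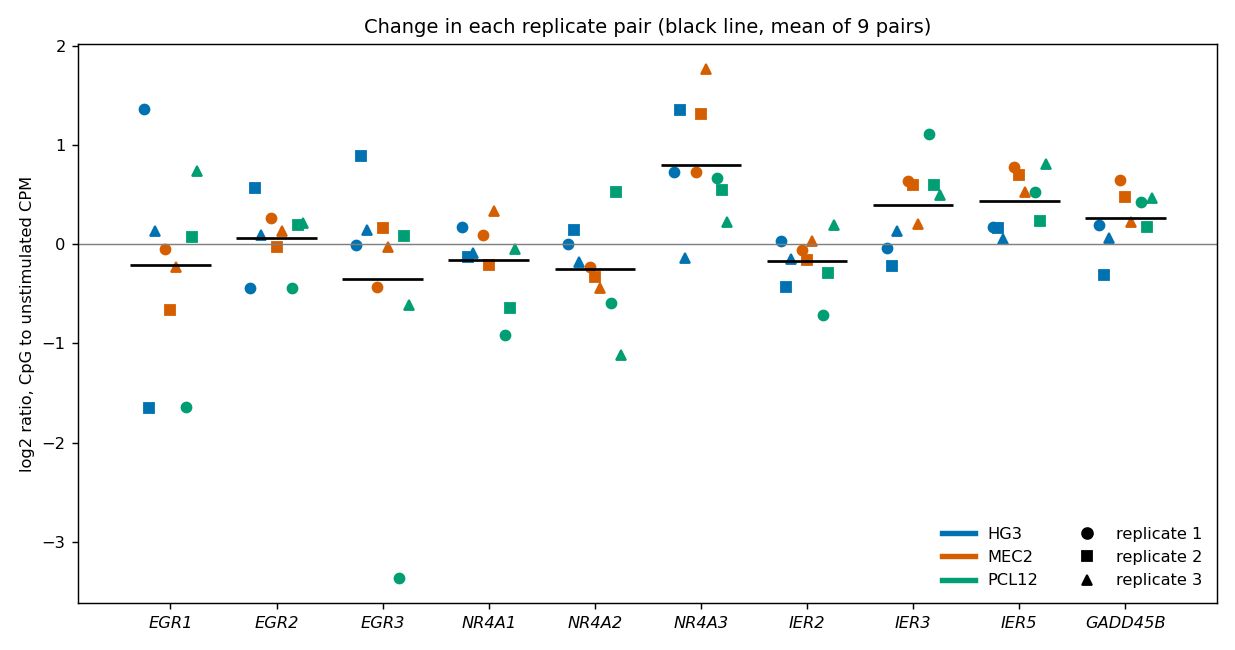
Log2 ratio of CpG-stimulated to unstimulated CPM in each of the 9 replicate pairs for each gene, coloured by line and shaped by replicate, with the mean of the 9 pairs as a black line. All 9 points of IER5 lie above 0, NR4A3 has the highest mean (0.80), and EGR3 in PCL12 pair 1 is the lowest point (-3.36).

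The EGR genes did not move in 1 direction. EGR3 was higher in 4 pairs and lower in 5, and its pairs differed most in PCL12, where it stood at 6.48, 5.49 and 2.55 CPM unstimulated and at 0.630, 5.81 and 1.68 CPM with CpG. PCL12 replicate 1 was far lower with CpG, with 202 and 44 counts in libraries of 31036376 and 67308932 counts and a log2 ratio of -3.36, and the other 2 pairs gave 0.08 and -0.61. Replicates 2 and 3 are those that stood apart in genes of MEC2, and the median percentage over those genes times the EGR3 level of the MEC2 library of the same number and treatment gives 8.56 and 2.06 CPM with CpG and 6.92 and 2.49 CPM unstimulated. The measured EGR3 levels of 5.81 and 1.68 CPM and of 5.49 and 2.55 CPM lay below these products in 3 of the 4 libraries. The part of these transcripts in the EGR3 result was not tested. The EGR3 log2 fold change in PCL12 was -0.88 ± 0.79 (SE, edgeR adjusted p = 1.00) and -1.21 ± 0.31 (SE, edgeR adjusted p = 0.0974) with the block. From PCL12 replicate 1 alone with the block it was -3.35, a value that rests on 1 pair, and without PCL12 replicate 1 it was -0.25 (edgeR adjusted p = 1.00). With the block EGR3 in PCL12 was called when 1 of 4 other pairs was left out. These were HG3 replicate 2 (-1.21, edgeR adjusted p = 0.00922), MEC2 replicate 2 (-1.21, 0.0184), PCL12 replicate 2 (-1.98, 0.00230) and PCL12 replicate 3 (-1.57, 0.0310).

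EGR1 had pairs that moved far in both directions. It stood at 5.08, 20.2 and 19.1 CPM in unstimulated and 13.1, 6.41 and 20.9 CPM in stimulated HG3, with log2 ratios of 1.36, -1.65 and 0.13. In PCL12 the EGR1 ratios were -1.64, 0.07 and 0.74, and in MEC2 they were -0.05, -0.66 and -0.23. EGR1 was lower in all 3 pairs of MEC2 and of mixed sign in the other lines, and its average over the lines was -0.38 ± 0.44 (SE, edgeR adjusted p = 1.00). EGR2 was higher in 6 of 9 pairs, with ratios between -0.44 and 0.56 and an average over the lines of 0.03 ± 0.34 (SE, edgeR adjusted p = 1.00, 95% confidence interval -0.69 to 0.75). With the block the EGR2 interval narrowed to -0.19 to 0.30.

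NR4A1 and NR4A2, the other NR4A receptors, were each lower with CpG in 6 of 9 pairs. NR4A1 in PCL12 was lower in every pair, at 26.2, 32.5 and 11 CPM unstimulated and 13.8, 20.9 and 10.7 CPM with CpG. The groups of NR4A1 overlapped, and with the block its log2 fold change in PCL12 was -0.54 ± 0.24 (SE, edgeR adjusted p = 1.00). NR4A2 in MEC2 was lower in every pair, by log2 ratios of -0.23, -0.33 and -0.44, with a blocked value of -0.33 ± 0.32 (SE, edgeR adjusted p = 1.00). IER2 was lower in 6 of 9 pairs, with ratios of -0.71 to 0.19 and a blocked average of -0.17 ± 0.12 (SE, edgeR adjusted p = 1.00). Among the 3 NR4A receptors, NR4A3 was higher in all 6 pairs of MEC2 and PCL12, NR4A1 in 2 of them and NR4A2 in 1. A difference between these genes was not tested. The averaged values of NR4A1 and NR4A2 changed sign without unstimulated HG3 replicate 3, to 0.05 and 0.02 in the unpaired edgeR fit.

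The second comparison asks whether the response differed between lines. The edgeR test of the difference called none of the 10 genes for MEC2 against HG3 (0% of tested genes called), PCL12 against HG3 (0.00314%) or PCL12 against MEC2 (0%), without the block. With the block none of the 10 passed either, where 0.141%, 0.0690% and 0.0126% of tested genes did. None of the 10 had an unadjusted P under 0.05 in these tests without the block, and DESeq2 and limma-voom called none. With the block EGR3 and IER3 for PCL12 against HG3 and EGR3 for PCL12 against MEC2 had an unadjusted edgeR P under 0.05, and none did for MEC2 against HG3 (2.39%, 1.36% and 3.53% of all tested genes). The largest difference was that of EGR3, whose CpG effect in PCL12 less that in HG3 was -1.11 ± 1.09 (SE, edgeR adjusted p = 1.00) and -1.54 ± 0.41 (SE, edgeR adjusted p = 0.135) with the block. This EGR3 difference ran from -2.34 to -0.53 with 1 library left out and, with the block, from -2.33 to -0.60 with 1 pair left out, where -0.60 was without PCL12 replicate 1. It was called with the block without PCL12 replicate 2 (edgeR adjusted p = 0.00425), PCL12 replicate 3 (0.0402) or MEC2 replicate 2 (0.0404). For IER3 the CpG effect in PCL12 less that in HG3 was 0.77 ± 0.31 (SE, edgeR adjusted p = 1.00) with the block. The CpG effects of IER3 and GADD45B in MEC2 and PCL12 were not shown to differ from those in HG3.

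The genes varied widely between replicate pairs of the same line. For each gene the mean log2 CPM of a pair was taken, and the range over the 3 pairs of a line had a median of 1.20 for the 10 genes in HG3, 1.86 in MEC2 and 1.07 in PCL12. Over all 10659 genes averaging 5 CPM or more the median range was 0.59, 0.49 and 0.43. This range exceeded the mean CpG change for 10, 10 and 9 of the 10 genes in HG3, MEC2 and PCL12, a share near that of all genes (94.5%, 87.7% and 91.3%). The exception was IER3 in PCL12, with a range of 0.67 and a CpG change of 0.73.

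**Figure D3:**
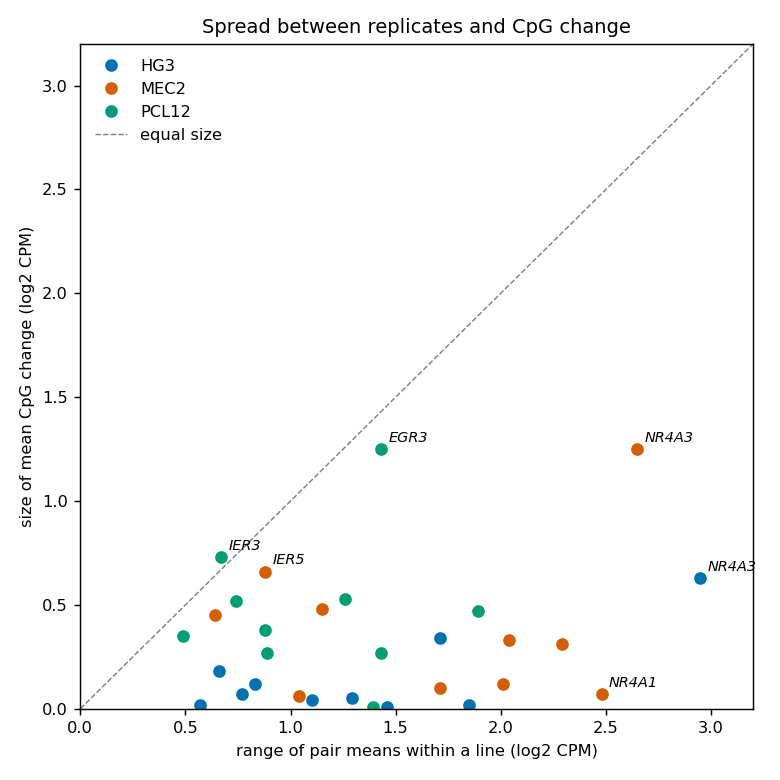
Range of the 3 pair means within a line (x axis, log2 CPM) against the size of the mean CpG change in that line (y axis, log2 CPM) for the 10 genes in the 3 lines, with a dashed line where both are equal. All points but IER3 in PCL12 lie below the line, and NR4A3 in HG3 has the widest range (2.95).

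The pair numbered 3 stood apart in each line, and not on the same side. In HG3 it was the highest for 8 of the 10 genes (42.2% of all genes), with NR4A3 at 5.96 times and NR4A1 at 3.36 times the mean of the other pairs on the log scale. In MEC2 it was the lowest for all 10 genes (42.1% of all genes), with NR4A3 6.08 times, NR4A1 5.07 times, EGR1 4.46 times and EGR2 4.01 times lower. In PCL12 it was the lowest for 9 of the 10 (30.2% of all genes), with NR4A3 2.52 times and EGR2 2.48 times lower. IER5 and GADD45B shifted least among the 10 in MEC2, by 1.66 and 1.48 times. The labels do not say what the pairs of the same number share across lines.

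Stress markers were read in the same pairs. HMOX1, which encodes the heme-degrading enzyme induced by oxidative stress, went the same way as the early response genes: its pair 3 differed from the mean of the other pairs by 1.30 in HG3, -4.30 in MEC2 and -2.02 in PCL12 (log2). HSPH1, a heat shock chaperone, was highest in pair 3 in all 3 lines, by 1.10, 1.63 and 0.97. DDIT3, a transcription factor of the integrated stress response, was lowest in pair 3 in all 3 lines, by -0.57, -1.02 and -0.82. HSPA1A, HSPA1B and DNAJB1 were highest in pair 3 in HG3 and MEC2 and lay between the other pairs in PCL12. None of the 6 stress markers was called with CpG in the edgeR fit, with or without the block, and the part of the stress level in the spread of the early response genes was not tested.

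Across the 18 libraries, with the mean of each line removed, the 10 genes moved together. Pearson's r between 2 of them had a median of 0.67 over 45 gene pairs, from 0.17 for EGR3 with IER3 and with GADD45B to 0.92 for IER5 with GADD45B. The median r of a member with all 10659 genes was 0.01. NR4A1 went with NR4A2 (r = 0.91) and IER2 (r = 0.90), and IER3 went with GADD45B (r = 0.90). With the mean of each group removed, which takes out the mean CpG change, the median was 0.79 (0.40 to 0.93). These coefficients describe 18 libraries that share preparation, depth and pairing, and no P value is given.

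With the mean of each line removed, the gene most like each member among the 10659 was named. NR4A3 was nearest to SLC7A11 (r = 0.95), the cystine transporter subunit. IER5 was nearest to SEMA6A (r = 0.96), a semaphorin. GADD45B was nearest to IL4I1 (r = 0.96), a secreted amino acid oxidase of B cells. EGR2 was nearest to TMEM140 (r = 0.96), NR4A1 to CARS (r = 0.96, a cysteine transfer RNA synthetase) and NR4A2 to FAM102A (r = 0.94). EGR3 was nearest to LY9 (r = 0.93, a receptor of the SLAM family), IER2 to DUSP2 (r = 0.92, a phosphatase of MAP kinases and itself an early response gene), EGR1 to FBXL12 (r = 0.91) and IER3 to PRPF39 (r = 0.91). With the mean of each group removed, NR4A1 was nearest to MAFF (r = 0.97), NR4A2 to RRAGB (r = 0.94) and IER3 to CCDC92 (r = 0.93), and the other 7 members to the genes above. These names were taken as the maximum over many genes and say nothing of shared control.

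The third comparison asks how the resting level of these genes differed between the lines. IER3 set HG3 apart. Unstimulated IER3 stood at 52.3, 119 and 88.4 CPM in HG3, 24.4, 23.4 and 12.8 CPM in MEC2 and 6.70, 11.6 and 7.54 CPM in PCL12, so that no 2 lines overlapped (of the 10659 genes averaging 5 CPM or more, 17.0%, 14.7% and 14.2% lay lower without overlap in MEC2 than in HG3, in PCL12 than in HG3 and in PCL12 than in MEC2). In edgeR it was 4.30 times lower in MEC2 than in HG3 (log2 -2.10 ± 0.38 SE, adjusted p = 0.000335) and 10.1 times lower in PCL12 (log2 -3.33 ± 0.40 SE, adjusted p = 1.6e-06). Of all tested genes 9.78% and 9.44% were called in these 2 comparisons, and 2 and 1 of the 10 genes were. Between PCL12 and MEC2 the IER3 difference of -1.23 ± 0.37 (SE) had an edgeR adjusted p of 0.0951, and it was called by DESeq2 (0.0405), by edgeR without a filter (0.00380) and by edgeR without CpG-stimulated (0.0443) or unstimulated (0.0448) MEC2 replicate 3. In bulk libraries fewer expressing cells and less RNA per cell cannot be told apart.

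IER5 was lower in MEC2 than in HG3, at 112 ± 28.0 CPM against 225 ± 71.9 CPM (SD, 3 libraries each). All 3 MEC2 libraries lay below all 3 HG3 libraries, and edgeR gave a log2 difference of -1.01 ± 0.31 (SE, adjusted p = 0.0362). The call was lost without HG3 replicate 2 (adjusted p = 0.0520), HG3 replicate 3 (0.184), MEC2 replicate 2 (0.0906) or MEC2 replicate 3 (0.178), all unstimulated libraries. It was also lost with library totals as the scaling (0.0728) and without both libraries rich in mitochondrial counts (0.0889). IER5 in PCL12 lay between them, at 136 ± 46.0 CPM, and its difference from HG3 was not called (log2 -0.72 ± 0.31 SE, edgeR adjusted p = 0.162).

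NR4A2 was lower in PCL12 than in MEC2. Unstimulated NR4A2 stood at 2.89, 2.92 and 2.76 CPM in PCL12, 23.4, 26.0 and 6.50 CPM in MEC2 and 5.56, 6.40 and 16.4 CPM in HG3. PCL12 lay below both other lines without overlap, and its difference from MEC2 was -2.70 ± 0.61 (log2 ± SE, edgeR adjusted p = 0.0182, 6.51 times lower), where 2.05% of tested genes were called. It was lost without unstimulated MEC2 replicate 1 or 2 or any unstimulated PCL12 replicate (adjusted p = 0.0627 to 0.106) and with limma-voom (0.0674), and the adjusted p was 0.304 from PCL12 replicate 1 alone, with a log2 difference of -2.66. The median percentage for the genes of MEC2 in PCL12 replicates 2 and 3 times the NR4A2 level in the same-numbered MEC2 library gives 7.30 and 2.03 CPM, beside the measured 2.92 and 2.76 CPM. NR4A2 in PCL12 replicate 1, where those genes were at 2.40% by their choice, was at 2.89 CPM. Against HG3 the NR4A2 difference of PCL12 was -1.73 ± 0.59 (log2 ± SE, edgeR adjusted p = 0.0739), and DESeq2 called it (adjusted p = 0.0182).

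**Figure D4:**
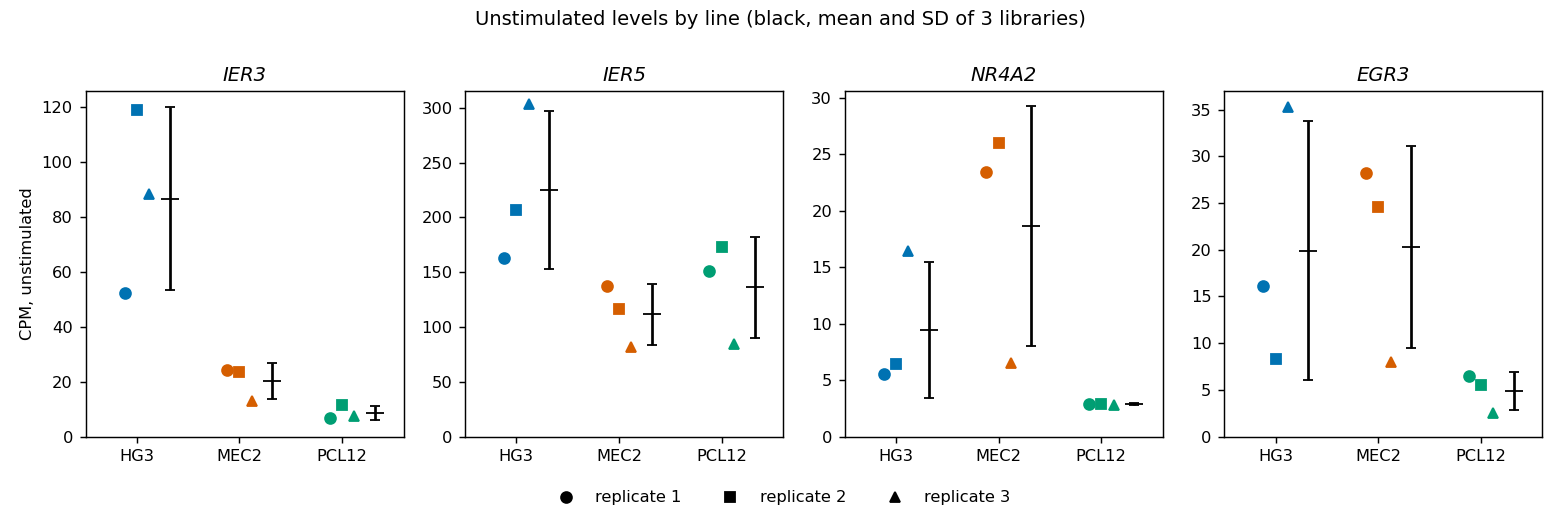
CPM of IER3, IER5, NR4A2 and EGR3 in the 3 unstimulated libraries of each line on linear axes from 0, shaped by replicate, with the mean and SD in black. IER3 does not overlap between any 2 lines, and NR4A2 in PCL12 (2.76 to 2.92 CPM) lies below every library of the other lines.

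EGR3 was also low in unstimulated PCL12, at 2.55 to 6.48 CPM, against 7.98 to 28.2 CPM in MEC2 and 8.31 to 35.3 CPM in HG3. PCL12 did not overlap with either line. The EGR3 differences of -2.05 ± 0.79 from HG3 and -2.07 ± 0.80 from MEC2 (log2 ± SE) were not called by edgeR with the filter on low counts (adjusted p = 0.142 and 0.316) and were called by edgeR without a filter (2.13e-06 and 6.86e-06) and by DESeq2 (0.0127 and 0.0271). From PCL12 replicate 1 alone both EGR3 differences were -1.61 (edgeR adjusted p = 0.537 and 0.667), and the products of the MEC2 percentage and the MEC2 level were 6.92 and 2.49 CPM in replicates 2 and 3, beside the measured 5.49 and 2.55 CPM. EGR1, EGR2, NR4A1, NR4A3, IER2 and GADD45B were not called between any 2 lines by edgeR with the filter, and without it EGR2 and NR4A1 were called between MEC2 and HG3, EGR2 between PCL12 and HG3 and EGR1 between PCL12 and MEC2. NR4A3 ranged from 1.34 to 17.8 CPM in unstimulated HG3, from 1.25 to 11.5 CPM in MEC2 and from 2.11 to 7.17 CPM in PCL12, so that its lines overlapped widely. The order of the means put EGR2 lowest in HG3 (22 ± 7.62 CPM) and at 45.1 ± 26.4 and 58.7 ± 28.0 CPM in MEC2 and PCL12 (SD), and edgeR with the filter called no difference between neighbours in that order. For EGR2 the HG3 libraries (13.2 to 26.4 CPM) ended just below those of PCL12 (26.7 to 78.7 CPM). The share of all genes higher in PCL12 than in HG3 without overlap was not counted. The EGR2 log2 difference of PCL12 from HG3, 1.41 ± 0.60 (SE), was not called by edgeR with the filter (adjusted p = 0.181) and was called by DESeq2 (adjusted p = 0.0387).

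Genes around the 10 were read from lists of relatives, of upstream inducers and of other early response genes. The relatives and partners, EGR4, the EGR corepressors NAB1 and NAB2, IER5L, GADD45A, GADD45G and the nuclear receptor partners RXRA and RXRB, had 0 of 8 genes called in any CpG comparison, with or without the block. The upstream inducers, among them SRF, ELK1, ELK3, ELK4, CREB1, MEF2B, MEF2C and MEF2D, had 0 of 18 called in either fit, and their median log2 fold change averaged over the lines without the block was 0.01 beside 0.01 over all genes of at least 5 CPM. At an unadjusted P under 0.05 without the block, 1 of the 18 was found in MEC2 and 1 averaged over the lines, and none of the 8 relatives (2.46% and 4.04% of all tested genes). At the same P with the block, 1, 3 and 2 of the 18 were found in HG3, MEC2 and PCL12 and 3 averaged. Of the 8 relatives 0, 1 and 0 were found in these lines and 2 averaged (3.59%, 3.41%, 1.69% and 4.54% of all tested genes). Without the block, limma-voom and DESeq2 called 0 genes of both lists and of the other early response genes.

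The other early response genes had 0 of 40 called in the unpaired edgeR fit, with 1 of 40 at an unadjusted P under 0.05 in MEC2 and 1 averaged over the lines (2.46% and 4.04% of all tested genes). At the same P with the block there were 5 of 40 in HG3, 6 in MEC2, 5 in PCL12 and 10 averaged (3.59%, 3.41%, 1.69% and 4.54% of all tested genes). With the block 3 of 40 rose and 1 fell averaged over the lines, against 0.555% of all tested genes. CD83, a surface marker of activated B cells, rose 1.69-fold (log2 0.75 ± 0.12 SE, edgeR adjusted p = 7.69e-07), and it also passed in MEC2 (1.95-fold, adjusted p = 0.00283) and PCL12 (1.88-fold, adjusted p = 0.0325). SGK1, a serine/threonine kinase, rose 1.66-fold (edgeR adjusted p = 0.00128), and TNFAIP3, which encodes the NF-κB inhibitor A20, rose 1.40-fold (edgeR adjusted p = 0.0188). KLF2, a transcription factor of resting lymphocytes, fell by 0.65 on the log2 scale (edgeR adjusted p = 0.0110). In PCL12, KLF2 (log2 -1.16 ± 0.28 SE, edgeR adjusted p = 0.0600) and SGK1 (1.01 ± 0.27 SE, edgeR adjusted p = 0.173) met the DEG definition with the block but missed the adjusted threshold. PCL12 replicates 2 and 3 stood apart in genes of MEC2. The part of those transcripts in the PCL12 results of CD83, KLF2 and SGK1 was not tested. In PCL12 replicate 1, CD83 stood at 106 CPM unstimulated and 238 CPM with CpG. There SGK1 stood at 2.21 and 6.30 CPM and KLF2 at 2.76 and 1.36 CPM. The other 36, among them FOS, JUN, MYC, DUSP1 and ZFP36, were not called averaged over the lines, and the median of the 40 was 0.10 beside 0.01 over all genes of at least 5 CPM.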

How the data were processed

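RNA libraries of the 18 samples were prepared and sequenced by the authors as single reads. The submitters' processing notes name FastQC, MultiQC, Trimmomatic, STAR and featureCounts and the build hg38, and their versions and settings are not given in the sources used here. The labels name Lexogen QuantSeq, which reads transcript ends, and the study's methods a stranded protocol and another extraction kit. Which applies was not settled, so levels were not compared between genes. The values are the raw counts per gene symbol as deposited by the authors, 1 column per library. All columns were matched to the samples by the labels.

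Genes with at least 10 counts in all (31872) entered edgeR 4.0.16 (R 4.3.3) with TMM scaling, robust quasi-likelihood dispersions and 1 mean for each of the 6 groups (12 residual degrees of freedom). P values were adjusted by Benjamini-Hochberg over all tested genes. CPM values used the TMM library sizes, and log2 CPM a prior count of 2. Counts give the precision of counting only, since PCR copies without molecular identifiers are not independent. A count of 0 allows up to 3 counts, or 0.0429 to 0.155 CPM by library.

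Same-numbered libraries of a line are pairs, since the series' design gives each replicate series 1 stimulated and 1 unstimulated sample. Their deviations from the group means (genes with at least 5 CPM) correlated with r of 0.306 to 0.735 in 8 pairs and of 0.0853 in MEC2 replicate 2. Over all tested genes r was -0.0785 to 0.327 and under 0.1 in 4 of the 9 pairs, so the pairing rests on the design. The blocked edgeR fit has 6 residual degrees of freedom, and its estimated prior was so strong that its tests rest on dispersions pooled over genes. Alternatives were DESeq2 1.42.0, limma-voom (limma 3.58.1), other scalings and filters, each line alone, and libraries left out. The fits were tested on simulated data first, with 200 genes given a log2 change of 2 in MEC2. Without the block edgeR recovered 154 of them, limma-voom 89 and DESeq2 157, with 0, 6 and 5 false calls in MEC2. With the block edgeR recovered 197 and limma-voom 185, with 5 and 22 false calls. Smaller changes were not simulated.

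All 10 genes are reported in every comparison. From the other lists, genes were named that passed an adjusted p of 0.05 or the study's definition of a DEG (P under 0.01 and a log2 fold change of at least 1 in size) in a CpG comparison, and for each of the 10 the most similar gene. The 10 genes and the lists were chosen with earlier results of these data known. Some listed genes are not reported here and were left out of their lists' counts. Promoter windows are those of RefSeq, gene positions those of GENCODE release 44.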

Additional observations from a re-analysis of the deposited data

How the results depend on the processing

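The counts of calls and the fold changes were refitted under other tools, scalings, filters and sets of libraries, and the causes of the changes were not tested. Without the block, the count of the 10 genes called with CpG was 0 in every line and averaged over the lines under all alternatives run, all 18 single libraries left out included. With the replicate block the count was 2 averaged over the lines (NR4A3 and IER5) and 0 within lines and between them, and limma-voom with the block gave 0 throughout. Chosen after seeing the data, the block without the pairs rich in mitochondrial counts gave 4 averaged, 2 in MEC2 (IER5 and NR4A3) and 3 in PCL12 (EGR3, IER3 and IER5), where 1.35%, 0.578% and 0.611% of all tested genes were called, and the block with PCL12 from replicate 1 alone gave 1 (EGR3) averaged, in PCL12 and in the difference of PCL12 from HG3 and from MEC2 (0.383%, 0.130%, 0.101% and 0.0811% of all genes). Leaving out 1 library, or 1 pair with the block, gave 0 to 2 averaged, 0 to 2 in MEC2, 0 to 1 in PCL12 and 0 to 1 for the difference of PCL12 from HG3, and with a pair left out 0.207% to 0.637%, 0.176% to 0.726%, 0.0204% to 0.157% and 0.0305% to 0.170% of all genes were called. Between unstimulated MEC2 and HG3 the count was 1 with library totals (9.88% of all genes) and without the libraries rich in mitochondrial counts (9.67%), 4 without a filter (8.83%) and 1 to 2 with 1 library left out (7.09% to 10.5%). Between PCL12 and HG3 it was 4 with DESeq2 (19.1% of the genes given an adjusted p) and without a filter (8.94%), and 1 to 2 with 1 library left out (7.23% to 10.2%). Between PCL12 and MEC2 it was 3 with DESeq2 (7.01%), 4 without a filter (3.2%), 0 with limma-voom (3.10%) and from PCL12 replicate 1 alone (1.98%), and 0 to 2 with 1 library left out (1.00% to 2.93%). IER3 stayed called against HG3 in both lines under all of these.

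Over the 100 fold changes of the 10 genes in 10 comparisons, the sign changed in 270 of 3470 refits, all for values within 0.92 standard errors of 0 in the unpaired fit, and 55 of the 100 changed sign at least once. The values followed in detail are given here. EGR1 averaged over the lines became 0.10 with the block without the pairs rich in mitochondrial counts. EGR2 averaged became -0.09 from PCL12 replicate 1 alone, -0.07 with the block as well and -0.13 without the libraries rich in mitochondrial counts. Without those libraries EGR2 in MEC2 became -0.09, EGR3 in HG3 -0.13 and unstimulated EGR3 in MEC2 less HG3 -0.34, which was -0.05 with limma-voom and -0.00 without a filter. NR4A1 in MEC2 became 0.27 with limma-voom, 0.06 with the block and 0.20 with the block without the pairs rich in mitochondrial counts, and limma-voom gave 0.03 for EGR3 in MEC2 and 0.01 for EGR2 in PCL12. With 1 library or pair left out, the averaged value ran from -0.54 to 0.04 for EGR1, from -0.11 to 0.17 for EGR2, from -0.51 to 0.05 for NR4A1 and from -0.41 to 0.02 for NR4A2. In MEC2 it ran from -0.81 to 0.17 for EGR1, from -0.30 to 0.53 for EGR2, from -0.49 to 0.26 for EGR3, from -0.50 to 0.47 for NR4A1, from -0.70 to 0.12 for NR4A2 and from -0.33 to 0.15 for IER2. In PCL12 it ran from -1.09 to 0.41 for EGR1, from -0.41 to 0.24 for EGR2, from -0.85 to 0.09 for NR4A2 and from -0.15 to 1.19 for NR4A3. In HG3 it ran from -0.42 to 0.02 for IER2 and from -0.35 to 0.93 for EGR3, and unstimulated EGR3 in MEC2 less HG3 ran from -0.32 to 0.72. The lowest count of any of the 10 genes was 26, for NR4A3 in unstimulated HG3 replicate 2.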
